A study of Homo sapiens with 6 samples.

Results

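The ADAMTS proteases are secreted zinc metalloproteases that carry thrombospondin type 1 repeats, and 8 of their genes, ADAMTS1, ADAMTS4, ADAMTS5, ADAMTS6, ADAMTS9, ADAMTS10, ADAMTS12 and ADAMTS15, are described here among the 60605 genes of the deposited table. The 8 genes were found by their symbols and were chosen from a family of 19 ADAMTS genes with earlier results of this same contrast known. Their levels, their fold changes and whether they passed the threshold are therefore given as a description, and their p-values are not printed. Messenger RNA was sequenced from MDA-MB-231, a mesenchymal line of triple-negative breast cancer, in 3 libraries with a control hairpin (shControl) and 3 with a hairpin against PUS1 (shPUS1), which encodes a pseudouridine synthase of transfer and other RNAs. In the study's methods all cells were infected with a lentiviral hairpin vector and selected with puromycin, the text names no particular hairpin for the sequenced cells, and the column headers of the knockdown libraries carry a 2 that no source explains, which may be a hairpin number. An effect of the hairpin's sequence cannot be told apart from one of low PUS1. The labels call the replicates biological but do not say whether they came from separate infections, so the p-values measure the spread between these libraries, which may be technical.

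Most ADAMTS enzymes are made as precursors that furin-type convertases cleave, and they act outside the cell. ADAMTS1, ADAMTS4, ADAMTS5, ADAMTS9 and ADAMTS15 cut the large chondroitin sulfate proteoglycans aggrecan and versican, ADAMTS6 and ADAMTS10 are a pair of close relatives linked to fibrillin microfibrils, and ADAMTS12 resembles ADAMTS7, which cuts cartilage oligomeric matrix protein. TIMP3 is the main tissue inhibitor of several of these enzymes. In breast and other carcinomas the family is known for remodelling the matrix around tumour cells and vessels.

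The libraries held from 14241505 to 19625998 estimated counts each, and 5 of the 8 genes passed the filter on low counts that left 14748 genes for the test. The table holds PUS1 at 2.57, 4.66 and 2.18 FPKM (fragments per kilobase of exonic length, scaled to the library total) in shControl replicates 1 to 3 and at 1.13, 0.95 and 0.93 in shPUS1. PUS1 fell by 1.64 on the log2 scale (SE 0.32, edgeR quasi-likelihood test with Benjamini-Hochberg adjusted p = 0.0462), its fold change moved to -1.19 without shControl replicate 2, and its highest adjusted p in edgeR with 1 library left out was 0.249. This library stood apart from its group, with correlations of log2 CPM (counts scaled to a common library total) of 0.9505 and 0.9521 to the other shControl libraries, which had 0.981 between them. The mesenchymal markers VIM, at 286.12 FPKM or more, and CD44, at 74.59 or more, were present in every library. They were lower in shPUS1 without overlap between the groups, with means of 447 and 311 FPKM for VIM (log2 fold change -0.50, edgeR adjusted p = 0.0873) and 93.5 and 75.6 FPKM for CD44 (-0.29, edgeR adjusted p = 0.169). CDH1, the epithelial cadherin, was near 0 and higher in shPUS1 without overlap, with means of 0.0633 and 0.163 FPKM (log2 fold change 1.47, edgeR adjusted p = 0.28). None of the 3 passed the threshold, and their part in the results on the ADAMTS genes was not tested. Gaps of this kind were seen downward in 19.4% and upward in 16.6% of all genes tested. The hormone receptors ESR1 and PGR stayed at or below 0.04, and the leukocyte and endothelial markers PTPRC and PECAM1 at or below 0.02 and 0.46. EPCAM, at 2.21 to 3.12 FPKM, and ERBB2, at 4.93 to 6.91, were low but present. ERBB2 was also lower in shPUS1 without overlap, with means of 6.26 and 5.07 FPKM (log2 fold change -0.28, edgeR adjusted p = 0.25). ESR1 was higher in shPUS1 without overlap, with means of 0.0167 and 0.04 FPKM, and was too low to be tested. The groups overlapped for EPCAM, PGR, PTPRC and PECAM1. RNA came from bulk cultures, in which fewer cells that express a gene and less RNA per cell cannot be told apart.

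The windows around the start sites of ADAMTS6, ADAMTS10 and ADAMTS12 are shown because these are the 3 of the 8 genes that the RefSeq windows (GRCh38.p14) matched, and each has 300 bases, 250 before to 50 after the start. ADAMTS12 had the highest level of the 8 genes and ADAMTS10 no count. They are written 5′ to 3′ on the minus strand of all 3 genes, and capitals mark a motif found on either strand.
ADAMTS6, chr5:65481871-65482170: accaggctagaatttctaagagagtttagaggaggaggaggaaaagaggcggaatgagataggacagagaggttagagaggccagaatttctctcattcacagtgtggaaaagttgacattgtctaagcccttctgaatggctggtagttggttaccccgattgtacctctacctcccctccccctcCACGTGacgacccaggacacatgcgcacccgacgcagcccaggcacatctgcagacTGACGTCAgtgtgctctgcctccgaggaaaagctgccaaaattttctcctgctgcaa
ADAMTS12, chr5:33891941-33892240: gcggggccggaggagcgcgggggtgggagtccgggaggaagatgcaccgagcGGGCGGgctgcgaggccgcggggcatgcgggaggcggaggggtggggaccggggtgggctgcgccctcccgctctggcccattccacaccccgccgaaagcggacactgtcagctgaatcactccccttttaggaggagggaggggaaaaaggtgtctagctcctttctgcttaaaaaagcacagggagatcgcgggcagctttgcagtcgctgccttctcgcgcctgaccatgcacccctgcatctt
ADAMTS10, chr19:8610666-8610965: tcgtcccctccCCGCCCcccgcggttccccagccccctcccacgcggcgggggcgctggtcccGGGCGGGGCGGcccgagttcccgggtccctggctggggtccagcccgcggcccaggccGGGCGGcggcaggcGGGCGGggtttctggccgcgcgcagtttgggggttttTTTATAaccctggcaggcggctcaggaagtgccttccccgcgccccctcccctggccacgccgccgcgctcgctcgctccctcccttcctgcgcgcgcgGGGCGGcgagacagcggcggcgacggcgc
The motifs searched on both strands were the core promoter box TATAAA, the GC-rich box bound by Sp factors, GGGCGG, the element bound by AP-1, TGACTCA, the cyclic AMP response element, TGACGTCA, and the E-box, CACGTG. The ADAMTS6 window had 52% G or C and 9 CpG, with CACGTG at bases 188 to 193 and TGACGTCA at bases 244 to 251, counted from 1 at its 5′ end. TGACGTCA is in 1.85% and CACGTG in 7.26% of the 35116 RefSeq windows of 27305 genes, whose median was 58.7% G or C and 14 CpG. The ADAMTS12 window had 67% G or C and 24 CpG, and its only match was GGGCGG at bases 53 to 58, a motif held by 45% of windows. The first ADAMTS10 window was the richest of the 3, with 79.3% G or C, 43 CpG and 6 matches to GGGCGG on either strand, of which a pair overlap, and with the core promoter box on the reverse strand at bases 173 to 178, which is found in 11.5% of windows. A second ADAMTS10 window, chr19:8592167-8592466, had 63.7% G or C and none of the 5 motifs. A match is a description of letters and not of a bound site.

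Among the 8 genes, ADAMTS1 and ADAMTS12 passed the threshold in the upward direction (adjusted p under 0.05 and log2 fold change of at least 1), 3 did not pass in either direction, and 3 were not tested. Of all genes tested 131, or 0.888%, passed upward and 71, or 0.481%, downward. The 3 shPUS1 libraries lay above the 3 shControl libraries for ADAMTS1, ADAMTS6 and ADAMTS12 and below them for ADAMTS15, while the groups overlapped for ADAMTS9. Such a gap between the groups was seen upward in 16.6% and downward in 19.4% of all genes tested. Because the genes were chosen with this contrast known, nothing is read from these shares.

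**Figure D1:**
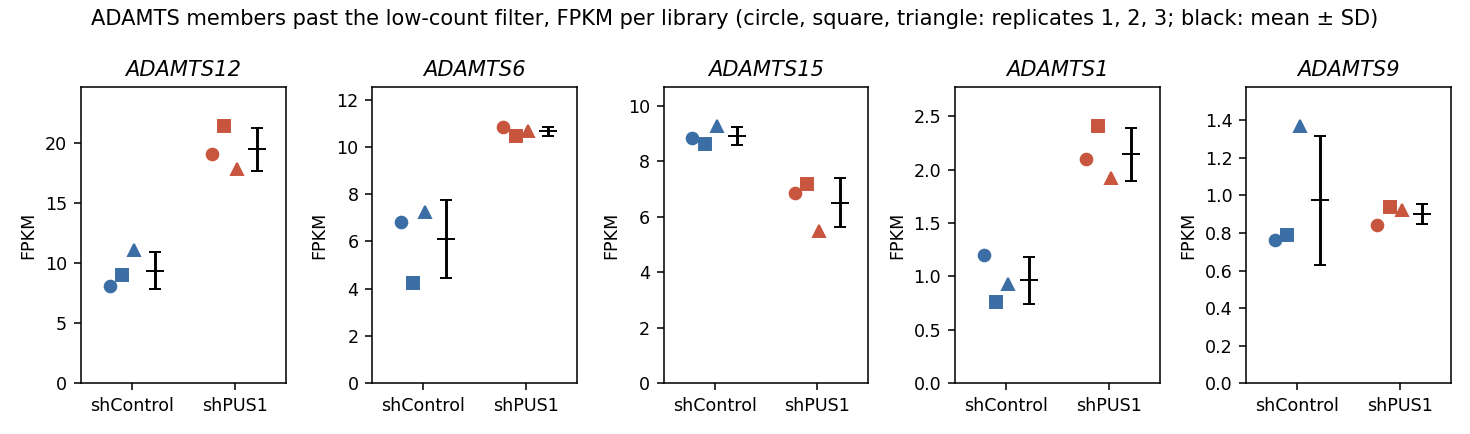
FPKM of the 5 ADAMTS genes that passed the low-count filter (vertical axes, linear and starting at 0) in 3 shControl libraries (blue) and 3 shPUS1 libraries (red), with the mean ± SD in black. The shPUS1 points sit above all shControl points for ADAMTS12, ADAMTS6 and ADAMTS1, below them for ADAMTS15, and among them for ADAMTS9.

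Of the enzymes that cut aggrecan and versican, ADAMTS1 (ENSG00000154734), which also cuts several growth factor precursors and binds vascular endothelial growth factor, lies on the minus strand of chromosome 21 from 26835755 to 26845409. Its level was 1.2, 0.76 and 0.93 FPKM in shControl replicates 1 to 3 and 2.1, 2.41 and 1.92 FPKM in shPUS1. The lowest shPUS1 library exceeded the highest shControl library, and the means were 0.963 ± 0.222 and 2.14 ± 0.248 FPKM (SD, n = 3 each). The difference was 1.18 on the log2 scale (SE 0.21), a fold of 2.27. It rested on 97 to 131 counts per shControl library and 240 to 323 per shPUS1 library, and the fold change lay between 1.06 and 1.35 with any 1 library left out.

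ADAMTS15 (ENSG00000166106), a proteoglycan-cutting enzyme with tumour-restraining activity in model systems, lies on the plus strand of chromosome 11 from 130448645 to 130476645 and is the only one of the 8 genes on that strand. Its level was 8.83, 8.62 and 9.27 FPKM in shControl and 6.86, 7.16 and 5.5 FPKM in shPUS1. All shPUS1 values were below all shControl values, and shPUS1 replicate 3 was the lowest of all. The means were 8.91 ± 0.332 and 6.51 ± 0.885 FPKM, a log2 difference of -0.43 (SE 0.14), which missed both the adjusted p and the minimum fold change. This difference kept its sign with each library left out, between -0.50 and -0.32, and the second of these values was without shPUS1 replicate 3.

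ADAMTS9 (ENSG00000163638), which cuts versican and is also needed for primary cilia, lies on the minus strand of chromosome 3 from 64515654 to 64688000. Its level was 0.76, 0.79 and 1.37 FPKM in shControl and 0.84, 0.94 and 0.92 FPKM in shPUS1. The shPUS1 libraries lay close together, inside the range of shControl, in which replicate 3 was the highest. The log2 difference was -0.08 (SE 0.25), and it turned to 0.21 without shControl replicate 3. The antisense RNA ADAMTS9-AS2 (chromosome 3, 64684909 to 65053439) shares 3092 bases of its span with ADAMTS9. Its level was 0.14, 0.08 and 0.16 FPKM in shControl and 0.27, 0.39 and 0.34 FPKM in shPUS1. This rests on 49 counts against 147, a log2 fold change of 1.43 (SE 0.35) that did not pass the threshold (edgeR adjusted p = 0.0678). The counting is not stated to use strand, so reads of ADAMTS9 and its antisense partners in the shared spans cannot be told apart.

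ADAMTS4 and ADAMTS5, the aggrecanases best known from cartilage, were near the limit of detection. ADAMTS4 (ENSG00000158859, chromosome 1, 161184302 to 161199054, minus strand) had 2 counts over the shControl libraries and 5 over the shPUS1 libraries, with exact 95% Poisson intervals of 0.242 to 7.22 and 1.62 to 11.7. ADAMTS4 was the only one of the 8 genes with counts that were not whole. ADAMTS5 (ENSG00000154736, chromosome 21, 26917922 to 26967088, minus strand) lies 72512 bases from ADAMTS1 on the same strand. It had 1 count in shControl (interval 0.0253 to 5.57) and 4 in shPUS1 (1.09 to 10.2), so that the neighbour of ADAMTS1 was at or below 0.02 FPKM in every library. A difference between the groups was not detectable at this depth for either gene, and the intervals cover counting error only.

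The fibrillin-linked pair was unequal. ADAMTS6 (ENSG00000049192), whose product cuts cell surface and microfibril components, lies on the minus strand of chromosome 5 from 65148738 to 65481920, and its window is shown above. Its level was 6.82, 4.23 and 7.26 FPKM in shControl and 10.84, 10.47 and 10.68 FPKM in shPUS1. All shPUS1 libraries were above all shControl libraries and differed little among themselves, with a coefficient of variation of 1.74% against 26.8% in shControl, where replicate 2 was the lowest. The means were 6.1 ± 1.64 and 10.7 ± 0.186 FPKM, a log2 difference of 0.84 (SE 0.19) that was 0.65 without shControl replicate 2. It missed both parts of the threshold, the adjusted p and the minimum fold change. ADAMTS10 (ENSG00000142303, chromosome 19, 8580240 to 8610735, minus strand), the relative that acts in fibrillin-1 assembly, had no count in 6 of 6 libraries. With 102548851 counts in all, 0 counts allow a level of up to 0.0293 CPM (3 counts).

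ADAMTS12 (ENSG00000151388), which cuts cartilage oligomeric matrix protein and was studied both as a restrainer and as a promoter of tumour cell growth, lies on the minus strand of chromosome 5 from 33523535 to 33892019. Its level was 8.1, 9 and 11.1 FPKM in shControl and 19.13, 21.46 and 17.9 FPKM in shPUS1. The groups were far apart, and the lowest shPUS1 library stood well above the highest shControl library. The means were 9.4 ± 1.54 and 19.5 ± 1.81 FPKM, and the difference was 1.08 on the log2 scale (SE 0.15), a fold of 2.11. It had 1167 to 1697 counts per shControl library and 2942 to 3779 per shPUS1 library, the most of the 8 genes. The fold change lay between 0.97 and 1.18 with 1 library left out, with the lower value without shControl replicate 1.

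The calls of ADAMTS1 and ADAMTS12 depended on the libraries. With a single library left out, both passed the threshold without shControl replicate 2, only ADAMTS12 passed without shControl replicate 3, and neither passed without shControl replicate 1 or without any of shPUS1 replicates 1, 2 and 3. Over the whole table these same fits called 241, 166, 11, 11, 5 and 0 genes upward in that order.

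**Figure D2:**
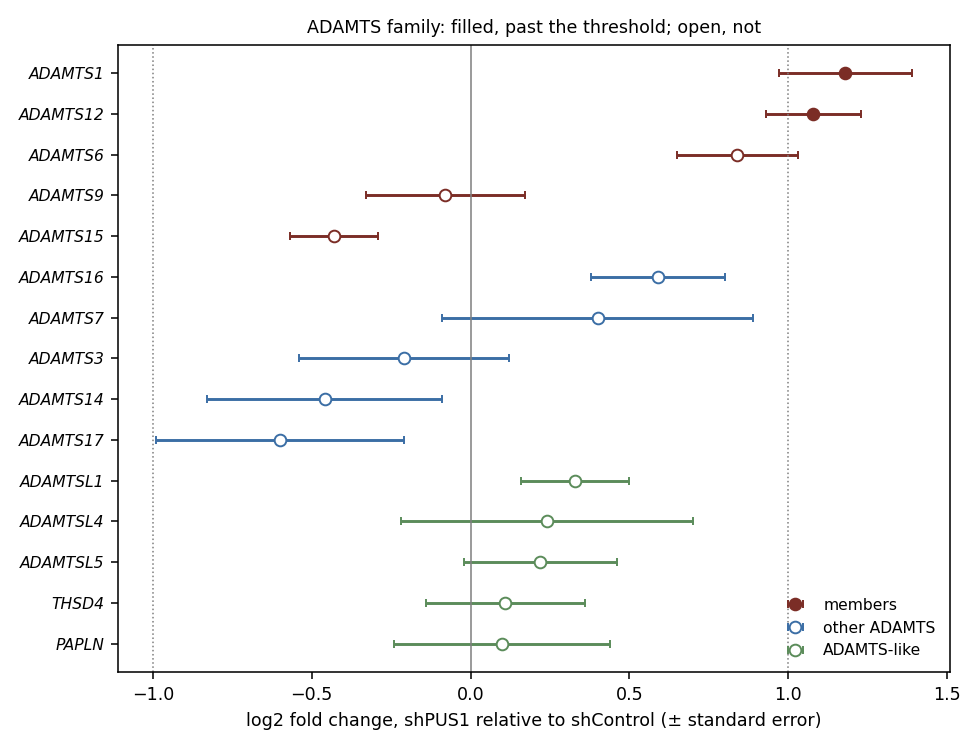
Log2 fold change of shPUS1 relative to shControl (horizontal axis) with its standard error for the ADAMTS and ADAMTS-like genes tested. Filled points passed the threshold and open points did not, and dotted lines mark log2 values of -1 and 1. ADAMTS1 and ADAMTS12 are the filled points, at 1.18 and 1.08.

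Levels were compared between genes in FPKM, which is per exonic length. In shControl the order by mean was ADAMTS12 (9.4 FPKM), ADAMTS15 (8.91), ADAMTS6 (6.1), ADAMTS9 (0.973) and ADAMTS1 (0.963), and the values of the first pair overlapped, as did those of ADAMTS9 and ADAMTS1. In shPUS1 the order was ADAMTS12 (19.5 FPKM), ADAMTS6 (10.7), ADAMTS15 (6.51), ADAMTS1 (2.14) and ADAMTS9 (0.9), with no overlap between neighbours. ADAMTS15 and ADAMTS6 thus changed places. ADAMTS9 and ADAMTS1 were level within their spread in shControl and apart in shPUS1. ADAMTS12 exceeded 67.3% of all genes tested in shControl and 83.5% in shPUS1, whereas ADAMTS9 exceeded 21.4% in both groups.

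The ratio of 2 genes within a library does not depend on how the library is scaled. ADAMTS12 to ADAMTS15 was 0.917, 1.04 and 1.2 in shControl and 2.79, 3 and 3.25 in shPUS1, so these genes were level in the control cells and apart in every shPUS1 library. ADAMTS6 to ADAMTS15 was 0.772, 0.491 and 0.783 in shControl and 1.58, 1.46 and 1.94 in shPUS1, on opposite sides of 1. ADAMTS12 to ADAMTS6 was 1.19, 2.13 and 1.53 in shControl and 1.76, 2.05 and 1.68 in shPUS1, and the groups overlapped. ADAMTS1 to ADAMTS9 was 1.58, 0.962 and 0.679 in shControl and 2.5, 2.56 and 2.09 in shPUS1.

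The FPKM of the 8 genes summed to 25.73, 23.4 and 29.94 in shControl and to 39.77, 42.46 and 36.96 in shPUS1. ADAMTS12 held 35.7% ± 3.7 of this sum in shControl and 49% ± 1.31 in shPUS1 (SD, n = 3 each), while the share of ADAMTS15 was 34% ± 2.91 and 16.3% ± 1.25. ADAMTS6 held 22.9% ± 4.34 and 27% ± 2.12. ADAMTS1 and ADAMTS9 together stayed a minor part, with ADAMTS1 at 3.67% ± 0.857 and 5.38% ± 0.261. Over all 19 ADAMTS genes the sum was 32.3 ± 4.65 and 47.8 ± 3.02 FPKM, so the 8 genes held most of the family's RNA.

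**Figure D3:**
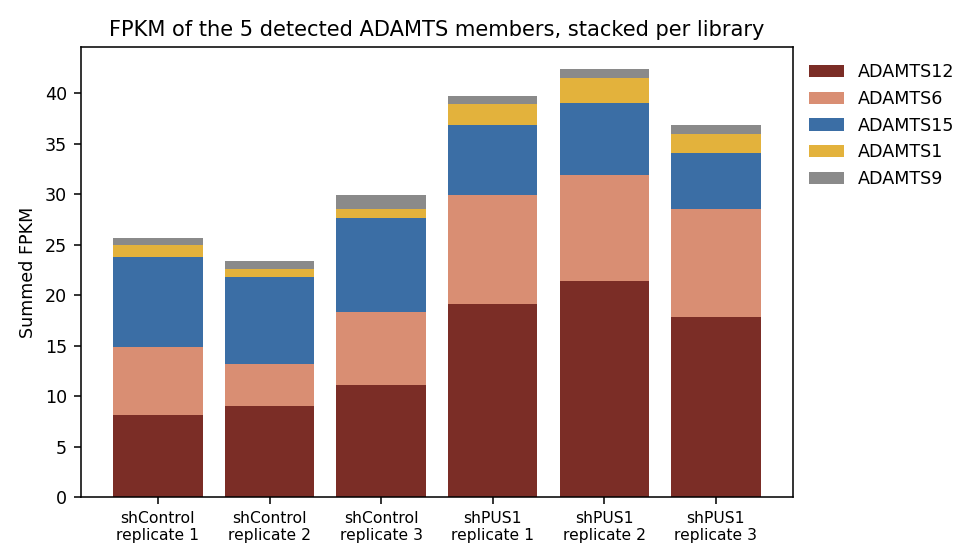
FPKM of the 5 ADAMTS genes that passed the low-count filter, stacked for each of the 6 libraries, with summed FPKM on the vertical axis. The ADAMTS12 block was the one that grew most in shPUS1, to 49% of the sum, and the ADAMTS15 block shrank to 16.3%.

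Of the other 11 ADAMTS genes, 5 were tested and 0 passed the threshold in edgeR, DESeq2 or limma, with 1 at an unadjusted p under 0.05 in edgeR. Over all genes tested, 3758, or 25.5%, were under that value, and 5 genes are too few for 0 calls to stand apart from the background of 0.888% upward and 0.481% downward. Their median log2 fold change was -0.21, against -0.03 over all genes tested. These 11 genes were left over when the genes described were chosen with this contrast known. Nothing is therefore read from their calls or their median, and their p-values are given as a description. The 1 gene with an unadjusted p under 0.05 in edgeR was ADAMTS16, a relative of ADAMTS18 that cuts fibronectin. Its level was 5.34, 3.21 and 5.96 FPKM in shControl and 7.3, 7.22 and 6.88 FPKM in shPUS1. All shPUS1 libraries were above all shControl libraries, and the log2 fold change was 0.59 (SE 0.21, edgeR adjusted p = 0.135), or 0.38 without shControl replicate 2. ADAMTS3, a procollagen N-proteinase, had a log2 fold change of -0.21 (SE 0.33), and ADAMTS7, the relative of ADAMTS12, had 0.40 (SE 0.49), which went to 0.00 without shControl replicate 2. ADAMTS2, ADAMTS18 and ADAMTS19 were at 0 in every library.

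The ADAMTS-like genes encode matrix proteins without the protease domain. Of 7, 5 were tested and 0 passed the threshold in edgeR, DESeq2 or limma, with 0 at an unadjusted p under 0.05 in edgeR, against the same backgrounds, and a median log2 fold change of 0.22. ADAMTSL4, which binds fibrillin-1, was at 13.22, 3.27 and 16.06 FPKM in shControl and 13, 12.07 and 12.25 FPKM in shPUS1. The shControl replicate 2 value was far below the rest, and the log2 fold change of 0.24 (SE 0.46, edgeR adjusted p = 0.767) turned to -0.19 without it. THSD4 had 0.11, or -0.11 without the same library, and ADAMTSL1 had 0.33 (SE 0.17, edgeR adjusted p = 0.253).

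The proteins that work with or on these enzymes were followed through 3 lists of 39 genes, of which 26 were tested. TIMP3, RELN and B3GLCT rose past the threshold in edgeR, against 0.888% of all genes tested. In edgeR, DESeq2 or limma 0 genes fell past it, against 0.481% of all genes in edgeR. At an unadjusted p under 0.05 in edgeR there were 8 upward and 3 downward, against 12.6% and 12.8% of all genes tested. The lists, too, were chosen with earlier results of these data known. Nothing is therefore read from these shares, and the p-values of list genes are given as a description. TIMP3 (ENSG00000100234), the tissue inhibitor that blocks ADAMTS4 and ADAMTS5, was at 20.76, 18.98 and 20.16 FPKM in shControl and 40.73, 44.24 and 42.83 FPKM in shPUS1. It rose by 1.12 on the log2 scale (SE 0.11, edgeR adjusted p = 0.00899), with both groups tight, and its mean level exceeded that of every ADAMTS gene in the same cells. Its adjusted p in edgeR was between 0.000454 and 0.123 with 1 library left out, and it was over 0.05 without shControl replicate 1 and without any 1 of the shPUS1 libraries. Of the 6 inhibitor and clearance genes 5 were tested, with a median log2 fold change of 0.43. TIMP1 had means of 49.7 and 52 FPKM in shControl and shPUS1 (log2 fold change 0.09). TIMP2 had 89.1 and 103 FPKM (0.23). Both were named after their values were seen, had higher means than TIMP3 in each group, and overlapped between the groups. TIMP4, which was named after its values were seen, had means of 1.2 and 2.43 FPKM and a log2 fold change of 1.03 (SE 0.29, edgeR adjusted p = 0.09).

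Of 25 substrate genes, 15 were tested, with a median log2 fold change of 0.08. RELN (ENSG00000189056), which encodes the secreted glycoprotein reelin, an ADAMTS substrate in brain, was at 0.05, 0.02 and 0.09 FPKM in shControl and 0.62, 0.88 and 0.55 FPKM in shPUS1. It rose by 3.73 on the log2 scale (SE 0.45, edgeR adjusted p = 0.0215) from a very low level, and by 3.34 to 4.35 with 1 library left out. RELN, like TIMP3 and B3GLCT, did not pass the threshold without shControl replicate 1 or without any 1 of the shPUS1 libraries. VCAN, which encodes versican, was at 0.55, 0.19 and 0.26 FPKM in shControl and 0.35, 0.32 and 0.38 FPKM in shPUS1. The groups overlapped, the log2 fold change was 0.08 (SE 0.38, edgeR adjusted p = 0.905), and it turned to -0.19 without shControl replicate 2 and to -0.08 without replicate 3. Aggrecan (ACAN) and neurocan (NCAN) were at 0. The growth factor genes VEGFC and HBEGF, named after their values were seen, had adjusted p under 0.05 but log2 fold changes of 0.96 and 0.64, under the minimum (edgeR adjusted p = 0.0319 and 0.0413). COL1A1, a collagen gene named in the same way, was at 1.63, 0.73 and 2.35 FPKM in shControl and 3.14, 3.53 and 3.19 FPKM in shPUS1. Its log2 fold change of 1.11 (SE 0.35, edgeR adjusted p = 0.11) did not pass in edgeR, but COL1A1 passed in DESeq2 and with no filter on low counts. The 3 substrate genes lower at an unadjusted p under 0.05 were THBS1, SDC4 and TFPI2, which encode thrombospondin 1, a syndecan and a protease inhibitor, and they were also named after their values were seen. Their log2 fold changes were -0.33, -0.34 and -0.62 (edgeR adjusted p = 0.133, 0.19 and 0.178), and the groups did not overlap for THBS1 and SDC4.

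Of 8 processing genes, 6 were tested, with a median log2 fold change of 0.20. B3GLCT (ENSG00000187676), the glucosyltransferase that extends O-fucose on thrombospondin repeats, was at 4.36, 4.96 and 3.97 FPKM in shControl and 8.64, 9.58 and 8.21 FPKM in shPUS1. It rose by 1.01 on the log2 scale (SE 0.15, edgeR adjusted p = 0.0319), just over the minimum, and was 0.99 with library totals in place of TMM. B3GLCT did not pass without shControl replicate 3 either. POFUT2, which adds the O-fucose, had a log2 fold change of 0.25. FURIN, a convertase that removes the prodomain of many of these enzymes, was named after its values were seen. It had means of 21 ± 3.19 and 38.4 ± 2.97 FPKM and a log2 fold change of 0.90 (SE 0.14, edgeR adjusted p = 0.0319), under the minimum.

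**Figure D4:**
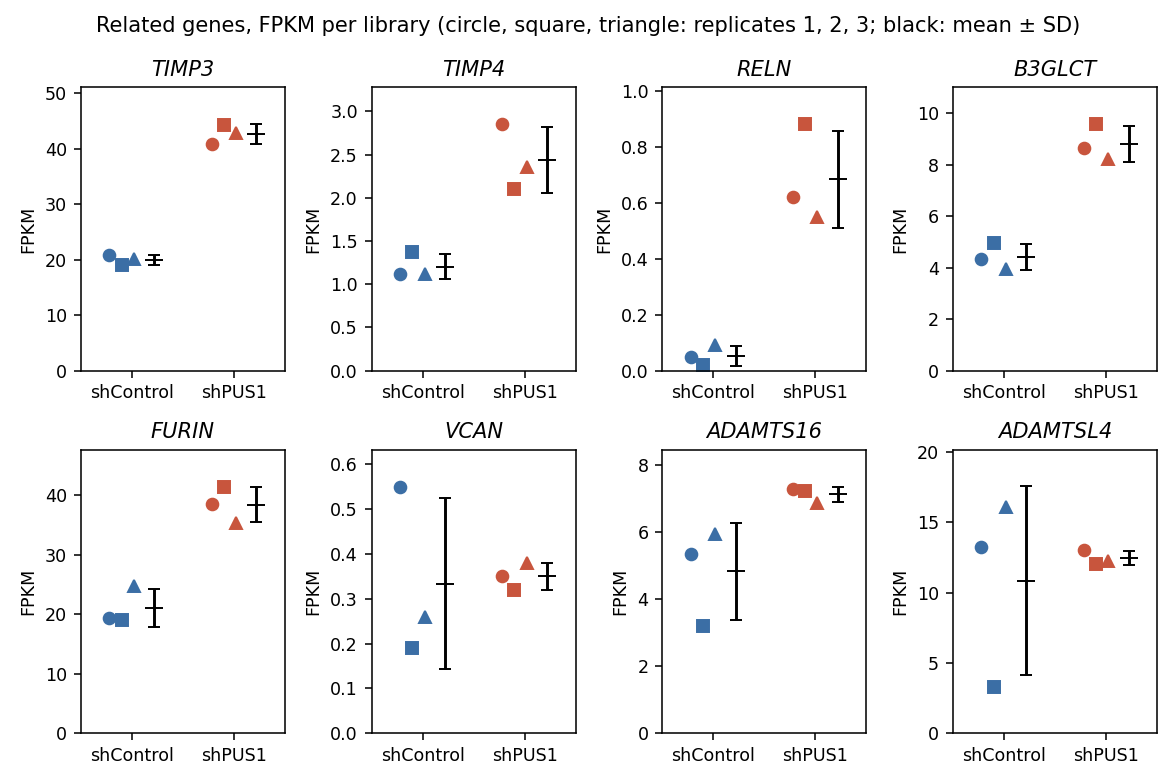
FPKM (vertical axes, linear and starting at 0) of TIMP3, TIMP4, RELN, B3GLCT, FURIN, VCAN, ADAMTS16 and ADAMTSL4 in 3 shControl (blue) and 3 shPUS1 (red) libraries, with mean ± SD in black. The groups do not overlap for TIMP3, TIMP4, RELN, B3GLCT, FURIN and ADAMTS16, overlap for VCAN, and in ADAMTSL4 shControl replicate 2 (square, 3.27 FPKM) lies below all others.

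**Figure D5:**
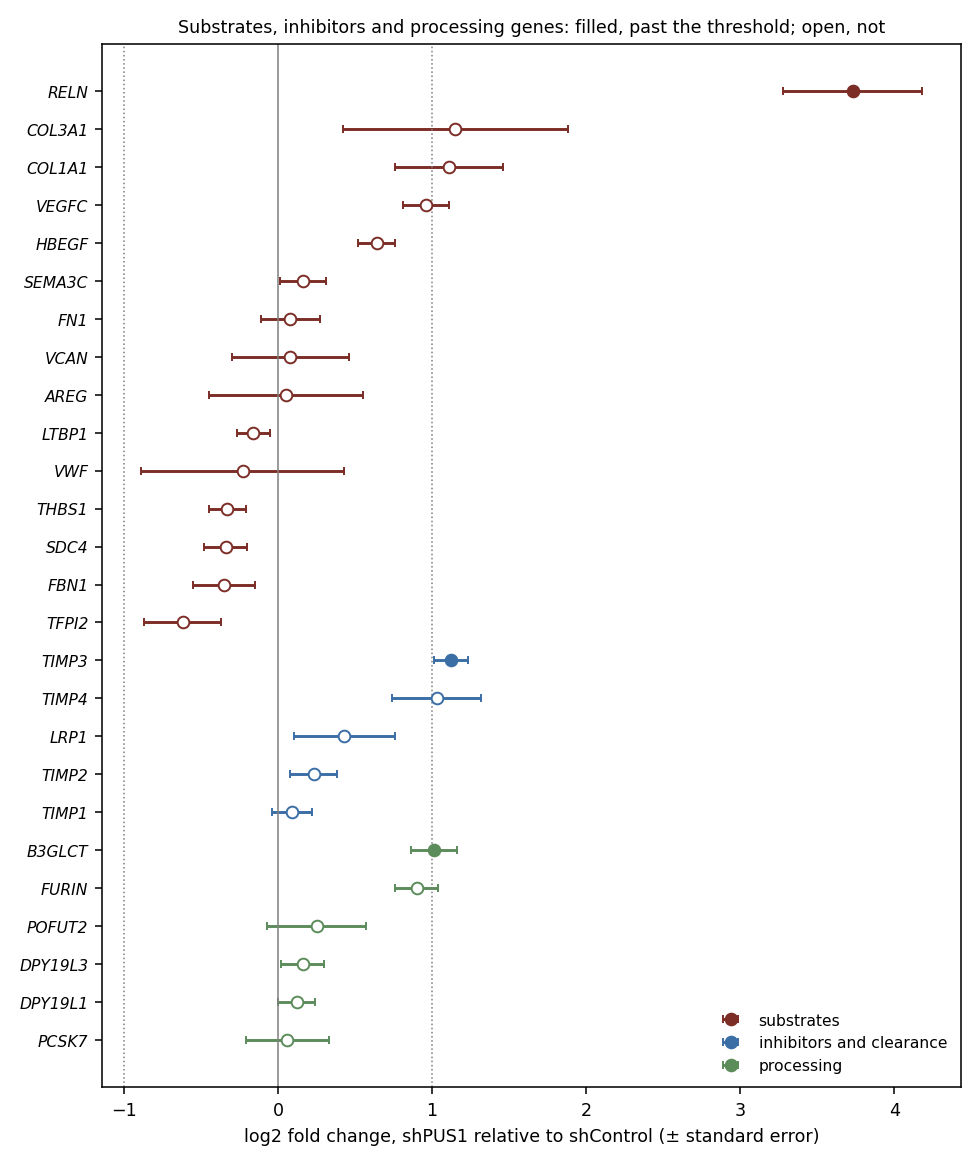
Log2 fold change of shPUS1 relative to shControl (horizontal axis) with its standard error for the 26 substrate, inhibitor and processing genes tested. Filled points passed the threshold, at 3.73 for RELN, 1.12 for TIMP3 and 1.01 for B3GLCT.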

How the data were processed

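Poly(A)-selected RNA of 3 shControl and 3 shPUS1 libraries was sequenced, and the submitters' processing notes name HISAT2 and HTSeq 0.6.1. The genome build, annotation and strandedness are not given in the sources used here. The authors deposited estimated counts for each gene, not normalized, of which 29.8% to 31.8% of those above 0 were not whole, and FPKM values that the authors made from them. The deposited FPKM matched counts per kilobase and library total within 0.005. No per-sample column was left out. The coordinates are those of the table, and all 8 genes lie on the same chromosome and strand in GENCODE release 29 (GRCh38), with starts and ends within 575 bases.

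Counts were rounded, filtered with filterByExpr, scaled by TMM (factors 0.973 to 1.03) and fitted with edgeR 4.0.16 in R 4.3.3, without a replicate block, with Benjamini-Hochberg adjustment over all 14748 genes. The standard error is the log2 fold change divided by the square root of F. DESeq2 1.42.0, limma 3.58.1 on log2(FPKM + 0.1) and log2(FPKM + 1), DESeq2 size factors, library totals, other filters, a replicate block, no minimum fold change and leaving out each library served as alternatives. Tables and plots were made in Python 3.11.15 with numpy 2.4.6, pandas 2.3.3, scipy 1.17.1 and matplotlib 3.10.9. The test was run on simulated data, where 96 of 100 genes with a log2 change of 3 and 78 of 100 with one of 1.5 were found, with 9 false calls. Changes nearer to the minimum of 1 were not simulated, and no simulated library stood apart from its group. These rates therefore do not cover the calls reported here that lie near that minimum.

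The genes described and the lists, written from general knowledge, were chosen with earlier results of these data known. The rule for naming took the 8 genes, PUS1, the 3 highest of the other ADAMTS and of the ADAMTS-like genes, up to 4 genes past the threshold in each further list, VCAN, TIMP3 and the 3 nearest profiles to ADAMTS1 and ADAMTS12. Residuals of libraries with the same replicate number had correlations of -0.0529, -0.0256 and -0.19, which showed no shared deviation. With 3 libraries a group these values cannot exclude that the numbers pair cultures, and the labels do not say.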

Additional observations from a re-analysis of the deposited data

How the results depend on the processing

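ADAMTS genes past the threshold upward numbered 2 in the analysis reported. There was 1 with limma on log2(FPKM + 0.1), 0 with limma on log2(FPKM + 1), 0 with the replicate block, and 0 to 2 with a library left out. Of substrate, inhibitor and processing genes, 3 passed upward, 1 with limma on log2(FPKM + 1), 1 with the replicate block, 6 with no minimum fold change, and 0 to 5 with a library left out, with 0 without shControl replicate 1 or any 1 shPUS1 library and 5 without shControl replicate 2. The replicate block, in which numbers need not pair cultures, left 18 upward and 0 downward calls in the whole table, against 131 and 71. DESeq2 called 249 upward and 238 downward, no filter 293 and 243, limma on log2(FPKM + 1) 65 and 16, limma on log2(FPKM + 0.1) 98 and 57, and leaving out shPUS1 replicate 3 left 0 and 0, with 2536 genes at an unadjusted p under 0.05. With a library left out, the log2 fold change ranged from -0.23 to 0.21 for ADAMTS9, from 0.00 to 0.88 for ADAMTS7, from -0.19 to 0.61 for ADAMTSL4, from -0.11 to 0.42 for THSD4 and from -0.19 to 0.63 for VCAN. The lowest values were those without shControl replicate 2, except for ADAMTS9, whose lowest was without shControl replicate 1. The highest values were those without shControl replicate 3, except for VCAN, whose highest was without shControl replicate 1. VCAN was at -0.08 without shControl replicate 3. The cause was not tested. Over the alternatives for single named genes, 173 values kept direction and side of the threshold, 40 kept direction only and 6 turned. With 3 libraries a group, the exact permutation test of a single value cannot go below p = 0.1, and depth limits ADAMTS4, ADAMTS5 and ADAMTS10.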

Other observations

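The tested genes whose profile over the 6 libraries lay nearest to that of ADAMTS1 were SLC31A2, CPEB2 and NRCAM, with root mean square differences of centred log2 CPM of 0.10, 0.12 and 0.12, against a median of 0.69 over all genes tested. Their log2 fold changes were 1.31, 1.08 and 1.11. SLC31A2 encodes a copper transporter, CPEB2 an mRNA-binding regulator of translation and NRCAM a neuronal cell adhesion molecule, which was low, at 0.0867 and 0.193 FPKM in the group means.

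For ADAMTS12 the nearest were RUBCN, LINC01140 and ARHGAP32, at 0.059, 0.065 and 0.068, against a median of 0.64. Their log2 fold changes were 1.02, 1.34 and 1.07. LINC01140 was low, at 0.0533 and 0.137 FPKM in the group means. RUBCN, which encodes the autophagy regulator rubicon, had means of 4.72 and 9.38 FPKM. The nearest genes of ADAMTS1 and of ADAMTS12 were picked for the smallest differences, so they lie under the medians by that choice. The likeness is a description over 6 libraries that share 1 contrast.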
